A study of Drosophila melanogaster with 8 samples.

Results

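The embryos described here carried UAS-QuadD, a set of altered neural transcription factor transgenes, and were compared with driver-only embryos of the same experiment. They make up 4 of the 8 RNA sequencing libraries of the study, 2 from QuadD and 2 from the control called Ctrl-D, and all genes of the deposited table were examined. In QuadD, da-Gal4 drove UAS-ase-Vp16, UAS-wor-EnR, UAS-SoxN-EnR and UAS-Kr. VP16 is a viral activation domain and EnR is the repressor domain of Engrailed, so 3 of the 4 factors had an altered activity and Kr was wild type. Ctrl-D embryos carried da-Gal4 over an OregonR chromosome and no UAS transgene. Both groups share the driver, which is active in most tissues of the embryo, and the strain background cannot be told apart from the transgenes. Each library came from 50 mg of frozen whole Drosophila melanogaster embryos, many embryos of stages 8 to 16 together. The labels call the replicates biological and do not say how the collections were separated, so p-values measure the spread between these libraries.

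In the fly embryo, neural stem cells (neuroblasts) leave the neurectoderm, divide asymmetrically to give ganglion mother cells, and these divide into neurons and glia. The genes ase, wor and SoxN act in neuroblasts and in the neurectoderm, and Kr is a gap gene that neuroblasts use again as part of a temporal series. Late in the same window the epidermis, trachea and gut secrete cuticle and form junctions, and muscles build sarcomeres.

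RNA of the transgenes' own genes was set beside the labels. The proneural-type factor ase had 122 and 118 RPKM in QuadD, against 38.9 and 39.05 RPKM in Ctrl-D (log2 fold change 1.60 ± 0.08, adjusted p = 8.73e-05). The Snail family factor wor had 253 and 265 RPKM in QuadD, against 60.7 and 60.4 RPKM in Ctrl-D (2.08 ± 0.08, adjusted p = 5.38e-05). For both genes the 2 QuadD libraries lay far above the Ctrl-D libraries. SoxN had 134 and 129.6 RPKM in QuadD, against 107 and 91.1 RPKM in Ctrl-D (0.41 ± 0.10, adjusted p = 0.0162), and leaving out either QuadD library ended its call (adjusted p = 0.0978 and 0.0787). Kr had 64.8 and 67.4 RPKM in QuadD, against 69.2 and 57.5 RPKM in Ctrl-D, the libraries overlapped, and it did not pass (0.07 ± 0.11, adjusted p = 0.637), so Kr RNA did not mark these libraries and QuadD stands below for the libraries labelled so. Levels count RNA of the embryo's own genes and of the transgenes together. Neural genes without a transgene, among them mira, pros and spdo given below, rose by similar amounts. The rises of ase and wor thus cannot tell transgene RNA from RNA of the embryo's own genes. The gene w (white), which many inserted constructs carry to mark eye colour, had 60.7 and 54.8 RPKM in QuadD, against 14.8 and 15.3 RPKM in Ctrl-D (1.87 ± 0.11, adjusted p = 0.000111). The Engrailed gene en, which lends the repressor domain, had 73.1 and 69.8 RPKM in QuadD, against 82.6 and 74.98 RPKM in Ctrl-D and did not pass. RPKM, read counts scaled to transcript length and library depth, are the deposited values. Fold changes are QuadD over Ctrl-D on the log2(RPKM + 1) scale, given ± SE, and understate the change of genes with low levels.

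The libraries held RNA of the tissues of a whole embryo. Neurons (elav, 258 and 240.3 RPKM in QuadD, against 119 and 112 RPKM in Ctrl-D), glia (repo, 57.2 and 62.7 RPKM in QuadD, against 26.03 and 26.5 RPKM in Ctrl-D), muscle (Mhc, 42.6 and 33.6 RPKM in QuadD, against 86.8 and 97.7 RPKM in Ctrl-D) and trachea (trh, 24.2 and 21.4 RPKM in QuadD, against 49.6 and 47.7 RPKM in Ctrl-D) were all represented. The hemocyte marker Hml stayed at or below 0.262 RPKM in every library, while the other hemocyte marker Pxn was between 27.5 and 38.5 RPKM. The larval and adult genes Yp1, Sgs3, ninaE and SP did not exceed 0.255 RPKM. The deposited raw counts, which are incomplete for part of the genes, summed to 6740835 and 2922038 in QuadD and to 2893271 and 2765722 in Ctrl-D. QuadD replicate 1 was thus more than 2-fold deeper than the others. Replicates correlated across genes at r = 0.992 in QuadD and 0.989 in Ctrl-D.

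QuadD embryos differed from Ctrl-D in the majority of tested genes, and the large changes were mostly falls. The deposited file lists 17321 genes, of which 10207 reached 1 RPKM in at least 2 libraries and were tested. Of these, 5618 (55.0%) passed, 2794 (27.4%) higher and 2824 (27.7%) lower. The direction was nearly even at this threshold, but quantile normalization gave 3456 higher and 2432 lower. By at least 2-fold, 537 genes (5.26%) were higher and 1350 (13.2%) lower, and with quantile normalization 880 and 1102. By at least 3 log2 units, 8 were higher and 189 lower, and by at least 5 log2 units none was higher and 33 were lower. Both QuadD libraries were below 1 RPKM and both Ctrl-D libraries at 10 RPKM or more for 61 genes, and 1 gene had the converse pattern. The median of all tested genes was 0.03, and the libraries of the groups did not overlap for 81.3% of tested genes. Lack of overlap in the genes named below is to be read against that share. With 1 library left out of the fit, the count of calls was 3741 without QuadD replicate 1 and 3293 without QuadD replicate 2, with 1615 and 1259 rises and 2126 and 2034 falls. Falls of at least 2-fold numbered 809 without Ctrl-D replicate 2, since genes below 1 RPKM in QuadD then have only 1 Ctrl-D library left to reach the filter of 2 libraries.

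**Figure D1:**
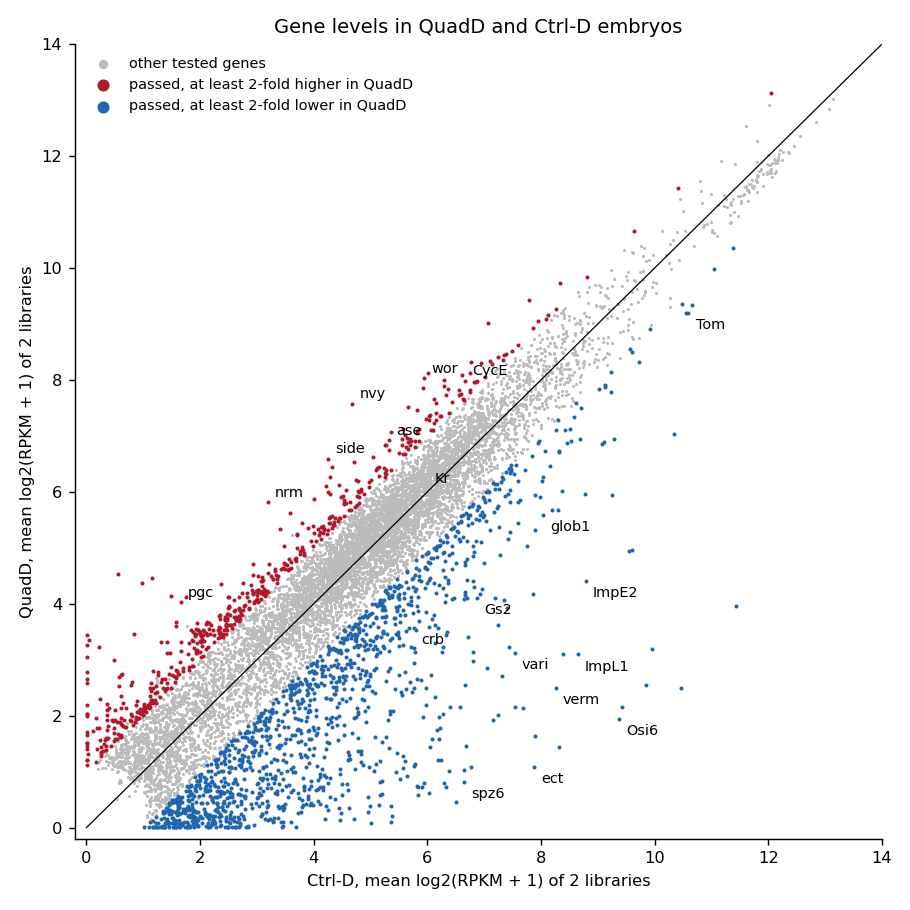
Mean log2(RPKM + 1) over 2 libraries in QuadD (vertical) and in Ctrl-D (horizontal) for the 10207 tested genes, with the line of equal levels. Red points are the 537 genes that passed and were at least 2-fold higher in QuadD, blue points the 1350 that passed and were at least 2-fold lower, and the blue points reach much farther from the line.

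Gene lists show which processes these calls fell in. Lists of neuroblast, axon, synapse and neuronal RNA-binding genes and the cell cycle, histone and nucleoporin lists lay mostly on the higher side. The cuticle, septate junction, secretory, sarcomere and detoxification lists lay mostly on the lower side. Glial, sensory organ, neuron identity, proneural and mesodermal factor lists held both rises and falls. In RNA of whole embryos, fewer cells of a type and less RNA per cell cannot be told apart. A different mix of stages 8 to 16 in the pooled collections cannot be told apart from these either. Both limits hold for every list, and the mix of stages was not tested. Counts are to be read against the 27.4% of tested genes that were higher and the 27.7% that were lower. Where leaving out 1 library moved the larger count of a list by more than 1.5-fold, the count without that library is given. Counts of 1 to 3 in 1 direction moved that far without some library in 30 of 44 cases. Leaving out a Ctrl-D library also takes members out of the test. Members below 1 RPKM in both QuadD libraries pass the filter only through Ctrl-D, so they can only be lower. Without Ctrl-D replicate 1, tested denticle genes went from 17 to 11 and tested cuticle protein genes from 14 to 8. Chitin assembly went from 20 to 15, Tweedle from 6 to 2, Toll and Spatzle from 14 to 9 and P450 from 38 to 23.

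**Figure D2:**
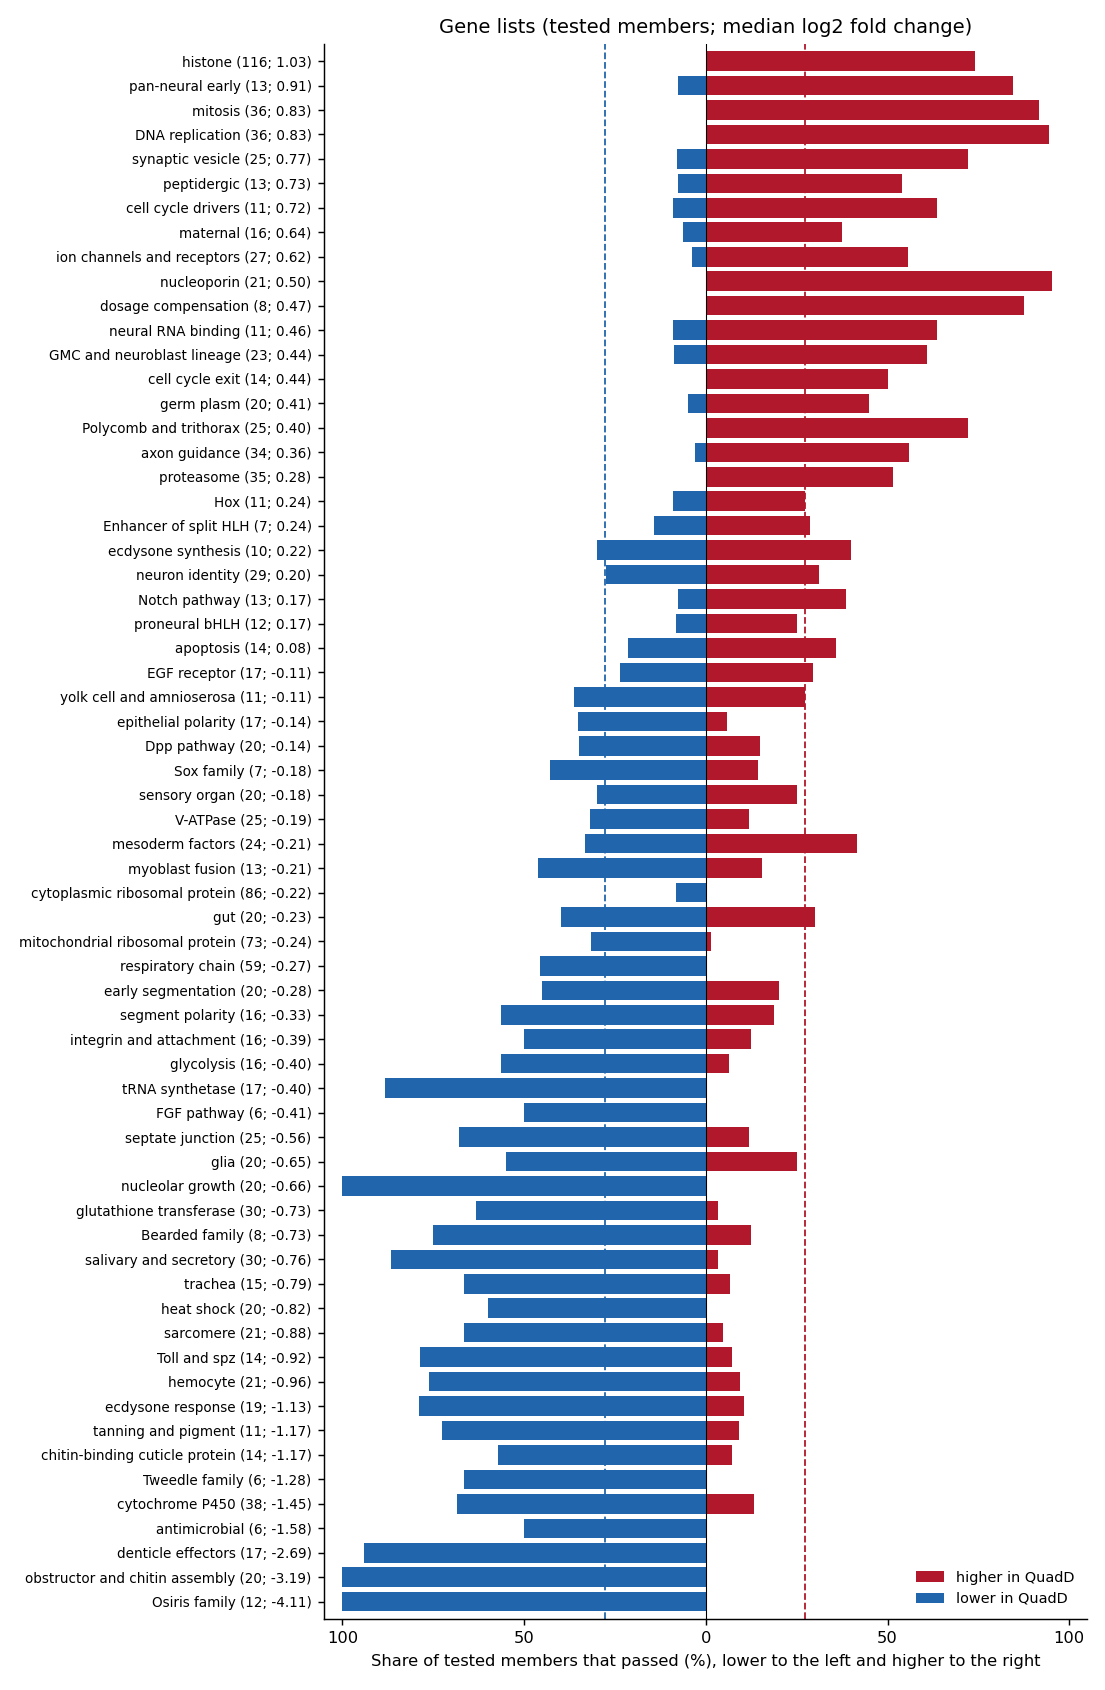
Share of tested members that passed, for each gene list with at least 6 tested members other than the transgenes' genes, lower (blue, to the left) or higher (red, to the right) in QuadD than in Ctrl-D, with the number of tested members and the median log2 fold change in brackets. The dashed lines mark the shares over all tested genes, 27.4% higher and 27.7% lower, and the lists run from the Osiris family at the bottom (median -4.11) to the histone genes at the top (1.03) among the lists drawn.

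Among the largest rises, genes of early neural cells stood out by level. The gene nvy (nervy), a corepressor of the ETO family that acts in neurons, had 169 and 212 RPKM in QuadD, against 25.98 and 23.4 RPKM in Ctrl-D (2.89 ± 0.13, adjusted p = 6.56e-05). The immunoglobulin-type adhesion gene nrm (neuromusculin) had 50.3 and 60.5 RPKM in QuadD, against 8 and 8.23 RPKM in Ctrl-D (2.62 ± 0.13, adjusted p = 8.46e-05). The gene side (sidestep), which guides motor axons, had 93.02 and 97.5 RPKM in QuadD, against 18.3 and 17.6 RPKM in Ctrl-D (2.35 ± 0.09, adjusted p = 5.46e-05). In each the lower QuadD library was at least 5 times the higher Ctrl-D library. The gene spdo (sanpodo), which sets Notch signalling in asymmetric division, had 275 and 279.8 RPKM in QuadD, against 65.9 and 60.9 RPKM in Ctrl-D (2.11 ± 0.08). Further rises at lower levels were CG13946 (20.2 and 24.3 RPKM in QuadD, against 0.304 and 0.636 RPKM in Ctrl-D, 3.99 ± 0.20), CG13794 (3.30 ± 0.20), CG11000 (2.62 ± 0.18), the neprilysin peptidase gene Nep4 (2.38 ± 0.17), CG42324 (2.03 ± 0.35) and the long noncoding RNA CR44024 (2.11 ± 0.20). The P450 gene Cyp4p2 (16.1 and 23.96 RPKM in QuadD, against 1.23 and 0.732 RPKM in Ctrl-D, 3.40 ± 0.24) lies inside hig on the reference, and hig, a gene of synaptic clefts, itself rose (1.46 ± 0.14). The gustatory receptor gene Gr2a (2.66 ± 0.18) overlaps futsch, and the germ cell gene pgc (2.37 ± 0.21) overlaps T3dh. Use of strand in the counting is not given, so reads of overlapping genes cannot be told apart. Of 445 genes that the naming rule picked, 190 overlap another gene on the reference. They include ase (with CG32816), w (kirre), spdo (PH4alphaEFB), mira (Hs6st), elav (arg), repo (CG7156), vari (Pomp), glu (CG17904), HmgD (HmgZ), CG9184 (Myo61F), CG14756 (LRP1), PPO1 (Elk) and roX1 (ec). The microRNA gene mir-4940 overlaps nwk. It had 69.96 and 107 RPKM in QuadD, against 36.5 and 9.54 RPKM in Ctrl-D (2.14 ± 0.56) and lost its call without QuadD replicate 2.

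Genes of neuroblasts and new neurons rose broadly. Of 13 tested genes that are switched on in neuroblasts and new neurons 11 rose and 1 fell (median 0.91). Beside nvy and nrm they included sca (scabrous), a secreted factor of proneural clusters, with 206 and 269.8 RPKM in QuadD, against 90.7 and 65.5 RPKM in Ctrl-D (1.60 ± 0.19). The 1 fall was the adhesion gene Fas2 (-0.30 ± 0.08), whose call ended when either QuadD library was left out. Genes of asymmetric division and of neuroblast lineages numbered 23, of which 14 were higher and 2 lower (median 0.44). The adaptor gene mira, which carries fate determinants into the daughter cell, had 681 and 688 RPKM in QuadD, against 252 and 189.9 RPKM in Ctrl-D (1.64 ± 0.14, adjusted p = 0.000386). The Numb partner gene pon had 272 and 266 RPKM in QuadD, against 104.3 and 89.4 RPKM in Ctrl-D (1.47 ± 0.10). The homeodomain gene pros, a determinant that ends stem cell character, had 178 and 173 RPKM in QuadD, against 61.2 and 49.7 RPKM in Ctrl-D (1.65 ± 0.11). The QuadD libraries lay above the Ctrl-D libraries in all 3. The factor gene mid fell (-0.57 ± 0.10), and nub had 39.5 and 39.9 RPKM in QuadD, against 45.4 and 32.5 RPKM in Ctrl-D and did not pass.

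Among families of the altered factors, the Snail family rose and the others were mixed. All 4 Snail family genes other than wor rose (median 1.23). The gene sna had 231 and 276 RPKM in QuadD, against 118 and 115 RPKM in Ctrl-D (1.11 ± 0.10, adjusted p = 0.000568), scrt, which keeps the neural fate, had 98.7 and 96.1 RPKM in QuadD, against 31.6 and 32.4 RPKM in Ctrl-D (1.57 ± 0.08, adjusted p = 9.67e-05), and the third, CG12605, rose by 1.35 ± 0.16. The rise of esg was small (0.35 ± 0.11) and its call ended when QuadD replicate 1, QuadD replicate 2 or Ctrl-D replicate 1 was left out. Among 7 other Sox genes 1 rose and 3 fell. Sox21b had 0.59 and 0.555 RPKM in QuadD, against 6.51 and 8.76 RPKM in Ctrl-D (-2.45 ± 0.20), and D (Dichaete), which shares neuroectodermal roles with SoxN, had 86.04 and 102 RPKM in QuadD, against 189.6 and 179.8 RPKM in Ctrl-D (-0.97 ± 0.10). Sox102F was the 1 that rose (0.96 ± 0.16), and the falls numbered 1 without Ctrl-D replicate 1 and 1 without Ctrl-D replicate 2. Of 12 proneural and related bHLH genes 3 rose and 1 fell, shares no larger than those over all tested genes. The neuronal bHLH genes tap (135 and 141 RPKM in QuadD, against 52.3 and 62 RPKM in Ctrl-D, 1.26 ± 0.11) and Oli (215 and 232 RPKM in QuadD, against 88.4 and 98.5 RPKM in Ctrl-D, 1.25 ± 0.09) rose, whereas the achaete-scute complex gene ac had 18.97 and 25.8 RPKM in QuadD, against 26.2 and 17.5 RPKM in Ctrl-D with overlapping libraries and did not pass.

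The Notch pathway and its target families did not move as one. Bearded family genes encode small antagonists of the ligand regulator Neuralized, and 6 of 8 fell while 1 rose (median -0.73). Tom had 575 and 594 RPKM in QuadD, against 1709 and 1393 RPKM in Ctrl-D (-1.40 ± 0.12, adjusted p = 0.000415), Ocho had 117 and 113 RPKM in QuadD, against 355 and 343 RPKM in Ctrl-D (-1.59 ± 0.08) and BobA, one of several near-identical Bob copies whose counts are uncertain, had 142 and 132 RPKM in QuadD, against 323 and 292 RPKM in Ctrl-D (-1.16 ± 0.09). In each, both QuadD libraries were below both Ctrl-D libraries. The 1 rise was E(spl)m6-BFM, with 66.9 and 87.3 RPKM in QuadD, against 32.96 and 35.8 RPKM in Ctrl-D (1.13 ± 0.14). It lies within the Enhancer of split complex, as do the family members E(spl)m2-BFM, E(spl)m4-BFM and E(spl)malpha-BFM, none of which passed as higher. Of 7 bHLH repressor genes of that complex 2 rose and 1 fell. E(spl)m8-HLH had 301 and 324 RPKM in QuadD, against 156 and 126 RPKM in Ctrl-D (1.15 ± 0.12), and the calls of the other 2, E(spl)mgamma-HLH (0.52 ± 0.13) and E(spl)m3-HLH (-0.42 ± 0.09), ended when either QuadD library was left out. The rises of this list numbered 4 without Ctrl-D replicate 1 and the falls 2 without Ctrl-D replicate 2. Of 13 core pathway genes 5 rose and 1 fell, the rises numbering 3 without QuadD replicate 1, 3 without QuadD replicate 2 and 3 without Ctrl-D replicate 2. The nuclear partner Su(H) (0.73 ± 0.12), the corepressor gro (0.70 ± 0.11) and the ubiquitin ligase neur (0.99 ± 0.15) rose, and the ligand gene Ser fell to 9.44 and 6.93 RPKM in QuadD, against 27.5 and 32.7 RPKM in Ctrl-D (-1.77 ± 0.18). The receptor gene N had 99.6 and 95.5 RPKM in QuadD, against 93.3 and 82.6 RPKM in Ctrl-D and did not pass.

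Genes of neurons with axons and synapses were higher as well. Of 25 tested synaptic vesicle and release genes 18 rose and 2 fell (median 0.77). The vesicle genes nSyb (38.5 and 41.7 RPKM in QuadD, against 12.9 and 14.99 RPKM in Ctrl-D, 1.46 ± 0.12, adjusted p = 0.000377) and Rab3 (25.8 and 24.4 RPKM in QuadD, against 7.15 and 9.496 RPKM in Ctrl-D, adjusted p = 0.000868), the fusion clamp gene cpx (1.40 ± 0.17) and the kinesin gene unc-104 (1.35 ± 0.15) were among them. The general fusion gene Nsf2, used in many cell types, had 73.2 and 71.3 RPKM in QuadD, against 66.1 and 65.5 RPKM in Ctrl-D and did not pass. The same held for Rop, with 87.7 and 83.3 RPKM in QuadD, against 80.3 and 84.5 RPKM in Ctrl-D. Of 11 neuronal RNA-binding protein genes 7 rose and 1 fell, with elav at 1.10 ± 0.08, msi at 1.32 ± 0.12, fne at 0.75 ± 0.10 and Rbp9 as the fall (-0.95 ± 0.17). Of 34 axon guidance and neural adhesion genes 19 rose and 1 fell (median 0.36), the rises numbering 12 without QuadD replicate 1 and 12 without QuadD replicate 2. Beside side, rises were seen in beat-Ia (32.7 and 35.2 RPKM in QuadD, against 14.1 and 15.03 RPKM in Ctrl-D, 1.17 ± 0.11), Ptp99A (0.99 ± 0.09) and robo3 (0.85 ± 0.13), while Sema2a had 247 and 228 RPKM in QuadD, against 243 and 232 RPKM in Ctrl-D and did not pass. Of 27 ion channel and transmitter receptor genes 15 rose and 1 fell. The acetylcholine receptor gene nAChRbeta1 had 20.4 and 23.2 RPKM in QuadD, against 7.802 and 10.6 RPKM in Ctrl-D (1.17 ± 0.18). These calls were sensitive to single libraries, with rises numbering 2 without QuadD replicate 1, 3 without QuadD replicate 2, 8 without Ctrl-D replicate 1 and 5 without Ctrl-D replicate 2. Of 13 peptidergic genes 7 rose and 1 fell, the rises numbering 2 without QuadD replicate 1, 2 without QuadD replicate 2 and 4 without Ctrl-D replicate 2. Mip, a neuropeptide gene, had 8.503 and 9.51 RPKM in QuadD, against 1.29 and 2.1 RPKM in Ctrl-D (1.91 ± 0.21).

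**Figure D3:**
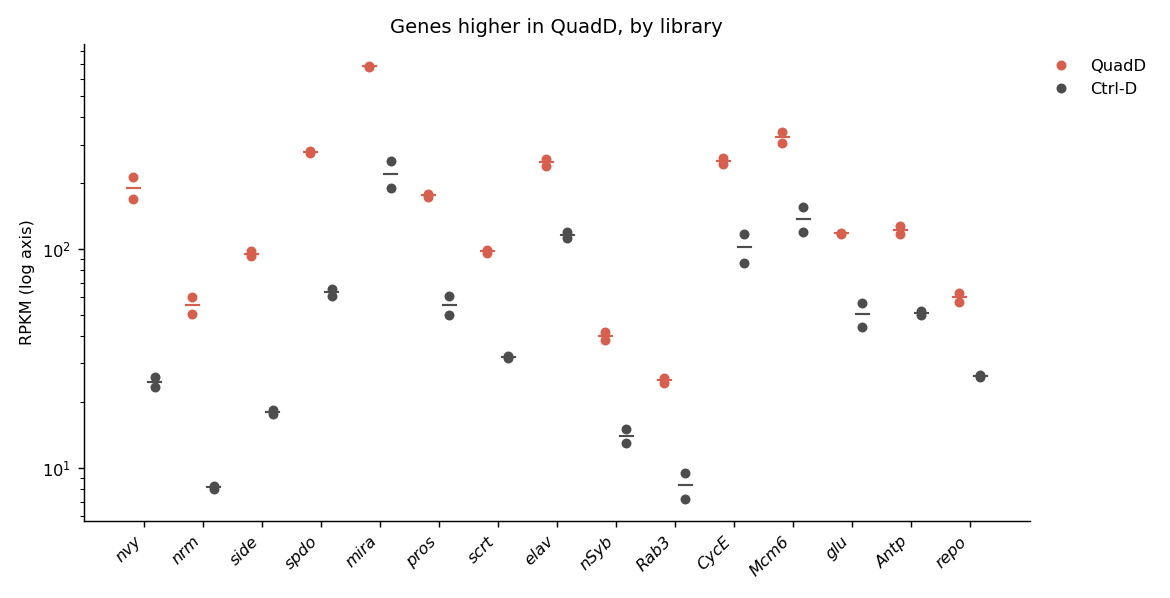
RPKM on a log axis in the 2 QuadD (red, left) and 2 Ctrl-D (grey, right) libraries for 15 genes that rose, with a bar at the mean of each pair. In all 15 both QuadD libraries lie above both Ctrl-D libraries, from the early neural genes nvy and nrm to the S phase gene CycE and the glial gene repo. The genes were picked among those that passed, and the groups did not overlap for 81.3% of all tested genes.

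Identity genes of single neuron types were split. Of 29 motor neuron and interneuron factors 9 rose and 8 fell, shares near those of all tested genes. The rises numbered 5 without QuadD replicate 1, and the falls 4 without QuadD replicate 2, 5 without Ctrl-D replicate 1 and 5 without Ctrl-D replicate 2. The homeodomain gene eve had 21.6 and 21.9 RPKM in QuadD, against 13.8 and 8.96 RPKM in Ctrl-D (0.91 ± 0.20), whereas the POU gene vvl had 55.7 and 57.03 RPKM in QuadD, against 108 and 109 RPKM in Ctrl-D (-0.93 ± 0.08), and otp (-0.85 ± 0.12) and so (-0.84 ± 0.12) fell. Of 11 Hox and cofactor genes 3 rose and 1 fell, shares no larger than those over all tested genes. Antp, the Hox gene of the thorax, had 127 and 118 RPKM in QuadD, against 49.9 and 52.1 RPKM in Ctrl-D (1.25 ± 0.09, adjusted p = 0.000211) and lab (0.85 ± 0.14) rose too, while the cofactor genes exd (243 and 262 RPKM in QuadD, against 262 and 239.7 RPKM in Ctrl-D) and hth (185 and 189 RPKM in QuadD, against 205 and 172 RPKM in Ctrl-D) overlapped between groups and did not pass. The call of tsh (0.34 ± 0.08) ended when either QuadD library was left out, and that of abd-A (-0.30 ± 0.10) when any 1 of the 4 libraries was left out.

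Glial genes moved in both directions. Of 20 tested glial genes 5 rose and 11 fell (median -0.65), and the rises numbered 1 without QuadD replicate 1 and 2 without QuadD replicate 2. The fate gene repo, which marks most glia, had 57.2 and 62.7 RPKM in QuadD, against 26.03 and 26.5 RPKM in Ctrl-D (1.16 ± 0.10, adjusted p = 0.000373). Several effector genes were lower. Glutamine synthetase 2 (Gs2) had 15.6 and 16.6 RPKM in QuadD, against 117 and 116 RPKM in Ctrl-D (-2.78 ± 0.09, adjusted p = 4.14e-05), and the midline glia adhesion gene wrapper had 12.96 and 12.1 RPKM in QuadD, against 29.4 and 37.7 RPKM in Ctrl-D (-1.34 ± 0.15). The libraries of the groups did not overlap in any of these. CG6126 (-2.03 ± 0.18) fell too, while the FGF receptor gene htl had 39.9 and 34.97 RPKM in QuadD, against 34.6 and 32.5 RPKM in Ctrl-D and did not pass.

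Sensory organ genes also moved both ways, in shares near those of all tested genes. Of 20 tested genes 5 rose and 6 fell, and the falls numbered 3 without QuadD replicate 2 and 3 without Ctrl-D replicate 2. The precursor genes phyl (204 and 262 RPKM in QuadD, against 72.8 and 48.8 RPKM in Ctrl-D, 1.94 ± 0.21) and sens (43.3 and 47.9 RPKM in QuadD, against 27.2 and 22.9 RPKM in Ctrl-D, 0.84 ± 0.12) rose, as did unc, a gene of sensory cilia (1.56 ± 0.16). The extracellular cap gene nompA, which links the cilium to the cuticle, had 1.195 and 1.04 RPKM in QuadD, against 7.36 and 7.83 RPKM in Ctrl-D (-2.02 ± 0.17), and betaTub60D (-0.63 ± 0.09) fell. The homeodomain gene ct (21.9 and 22.7 RPKM in QuadD, against 24.5 and 25.8 RPKM in Ctrl-D) and ham (21.96 and 19.4 RPKM in QuadD, against 24.1 and 24.9 RPKM in Ctrl-D) did not pass.

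Genes of the cell cycle were higher, apart from a few regulators. CycE, which starts S phase, had 244 and 261 RPKM in QuadD, against 117 and 86.3 RPKM in Ctrl-D (1.32 ± 0.15, adjusted p = 0.000978), and the S phase activator gene E2f1 had 205 and 199 RPKM in QuadD, against 125 and 98.4 RPKM in Ctrl-D (0.86 ± 0.12, adjusted p = 0.00251). The Cdc25 phosphatase gene stg had 278 and 303 RPKM in QuadD, against 307 and 247 RPKM in Ctrl-D, the libraries overlapped and it did not pass. Of 36 tested replication genes 34 rose and 0 fell (median 0.83), for example the helicase genes Mcm6 (306 and 341 RPKM in QuadD, against 155 and 119.6 RPKM in Ctrl-D, 1.24 ± 0.14) and Mcm2 (198 and 204 RPKM in QuadD, against 116 and 82.1 RPKM in Ctrl-D, 1.03 ± 0.16). Of 36 mitosis genes 33 rose and 0 fell (median 0.83), with the condensin gene glu (119 and 117 RPKM in QuadD, against 56.4 and 43.9 RPKM in Ctrl-D, 1.23 ± 0.13) and the kinesin gene ncd (1.16 ± 0.12) among the largest. Among genes that slow or end the cycle, 7 of 14 rose and 0 fell. The Cdk inhibitor gene dap had 544 and 531 RPKM in QuadD, against 305 and 270.4 RPKM in Ctrl-D (0.90 ± 0.09, adjusted p = 0.000731) and rux rose by 0.79 ± 0.10, while the libraries of the groups overlapped for ago (169 and 185 RPKM in QuadD, against 197 and 154 RPKM in Ctrl-D), which did not pass. CycD, the cyclin of growth control, had 47.2 and 49.8 RPKM in QuadD, against 53.4 and 44.6 RPKM in Ctrl-D and did not pass, and its partner Cdk4 fell (-0.56 ± 0.11), a call lost without QuadD replicate 1. Between the Ctrl-D libraries, replicate 2 minus replicate 1, the median log2 difference was -0.37 for the replication list and -0.34 for the mitosis list. Between the QuadD libraries it was 0.13 and 0.03. The part of this spread in the result was not tested.

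Chromatin and nuclear genes accompanied these rises. Of 116 tested histone genes 86 rose and 0 fell (median 1.03), but most are near-identical copies whose reads cannot be told apart, so they count as few observations. Variant histone genes have a sequence of their own. His3.3A had 2765 and 2758 RPKM in QuadD, against 1373 and 1349 RPKM in Ctrl-D (1.02 ± 0.10, adjusted p = 0.000623) and His2Av had 2994 and 3005 RPKM in QuadD, against 1896 and 1660.2 RPKM in Ctrl-D (0.76 ± 0.12, adjusted p = 0.00305), while His4r had 1365 and 1320.0 RPKM in QuadD, against 1561 and 1734 RPKM in Ctrl-D and did not pass. The abundant HMG-box chromatin gene HmgD had 8827 and 9133 RPKM in QuadD, against 4585 and 3875 RPKM in Ctrl-D (1.09 ± 0.15, adjusted p = 0.00202), the largest gain in RPKM of any gene. Of 21 nucleoporin genes 20 rose and 0 fell (median 0.50), for example Nup358 (93.7 and 89.8 RPKM in QuadD, against 59.2 and 43.8 RPKM in Ctrl-D, 0.84 ± 0.15) and Nup205 (0.78 ± 0.13). The rises were of modest size and numbered 10 without QuadD replicate 1 and 6 without QuadD replicate 2. The Polycomb and trithorax list had 25 tested members, of which 18 were higher and 0 lower (median 0.40), with rises numbering 9 without QuadD replicate 1 and 9 without QuadD replicate 2. The trithorax group gene ash2 (0.81 ± 0.12) and Pc, the founding Polycomb gene (49.4 and 58.9 RPKM in QuadD, against 32.96 and 30.7 RPKM in Ctrl-D, 0.75 ± 0.12), were examples, while Psc (36.3 and 36.1 RPKM in QuadD, against 34.6 and 32.5 RPKM in Ctrl-D) did not pass.

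The deepest falls were in genes of cells that secrete cuticle. Osiris genes encode transmembrane proteins of such cells, and all 12 of the 24 listed members that could be tested fell (median -4.11). Most of these members passed the filter only through Ctrl-D, which fixed their direction. The share that fell and the median are therefore not independent of the filter. Osi6 had 2.58 and 3.13 RPKM in QuadD, against 553 and 789 RPKM in Ctrl-D (-7.43 ± 0.18, adjusted p = 2.62e-05) and Osi7 had 1.396 and 3.08 RPKM in QuadD, against 203 and 279 RPKM in Ctrl-D (-6.26 ± 0.27, adjusted p = 6.01e-05). Both QuadD libraries held at most 3.13 RPKM of either gene. The falls of this list numbered 3 without Ctrl-D replicate 1 and 3 without Ctrl-D replicate 2, because the other members then failed the filter of 1 RPKM in 2 libraries, and the median was -6.48 without Ctrl-D replicate 1. Of 20 chitin synthesis and assembly genes 0 rose and 20 fell (median -3.19, and -1.94 without Ctrl-D replicate 2). The chitin deacetylase gene verm had 5.8 and 3.66 RPKM in QuadD, against 259 and 359 RPKM in Ctrl-D (-5.76 ± 0.22, adjusted p = 5.46e-05), serp, its partner in tube length control, had 3.09 and 3.01 RPKM in QuadD, against 124 and 181 RPKM in Ctrl-D (-5.22 ± 0.19, adjusted p = 5.01e-05), and the chitinase gene Cht5 had 0.55 and 0.448 RPKM in QuadD, against 28.6 and 42.8 RPKM in Ctrl-D (-4.59 ± 0.22). Of 17 genes that shape denticles and their apical matrix 0 rose and 16 fell (median -2.69), the falls numbering 10 without Ctrl-D replicate 1 and 9 without Ctrl-D replicate 2. The zona pellucida domain genes mey (2.81 and 2.104 RPKM in QuadD, against 64.4 and 84.3 RPKM in Ctrl-D, -4.44 ± 0.18), dyl (0.659 and 0.048 RPKM in QuadD, against 30.5 and 38.7 RPKM in Ctrl-D, -4.74 ± 0.26) and m (-4.61 ± 0.19) and the denticle gene sha (0.24 and 0.31 RPKM in QuadD, against 21.8 and 25.6 RPKM in Ctrl-D, -4.27 ± 0.17) fell, and trn had 210.4 and 243 RPKM in QuadD, against 235 and 237 RPKM in Ctrl-D and did not pass. Beside these lists, ect had 1.11 and 1.14 RPKM in QuadD, against 206 and 264 RPKM in Ctrl-D (-6.78 ± 0.15, adjusted p = 2.4e-05), and genes listed by number that fell as deeply were CG31813 (nur on the reference, 8.23 and 2.4 RPKM in QuadD, against 1176 and 1676 RPKM in Ctrl-D, -7.97 ± 0.44), CG9184 (15.2 and 14.03 RPKM in QuadD, against 2346 and 3277 RPKM in Ctrl-D, -7.47 ± 0.16), CG10591 (-7.29 ± 0.29), CG14756 (-7.27 ± 0.20), CG14110 (-6.87 ± 0.16), CG13159 (-6.76 ± 0.23), CG30413 (-6.05 ± 0.28), CG15282 (-5.69 ± 0.21), CG15239 (-5.61 ± 0.19) and CG11905 (-5.61 ± 0.21). CG12011, also abundant in Ctrl-D, had 144 and 117 RPKM in QuadD, against 1109 and 1504 RPKM in Ctrl-D (-3.31 ± 0.17).

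Cuticle components proper, tanning enzymes and ecdysone-inducible genes fell along with them. Of 14 tested chitin-binding cuticle protein genes (of 97 listed) 1 rose and 8 fell, and the falls numbered 2 without Ctrl-D replicate 1 and 1 without Ctrl-D replicate 2. Cpr51A (1.13 and 0.204 RPKM in QuadD, against 10.7 and 16.2 RPKM in Ctrl-D, -3.15 ± 0.33) and Cpr11A (0.14 and 0.109 RPKM in QuadD, against 7.18 and 10.8 RPKM in Ctrl-D, -3.13 ± 0.23) were among the falls. Of 6 tested Tweedle genes 4 fell, the falls numbering 2 without QuadD replicate 2, 0 without Ctrl-D replicate 1 and 0 without Ctrl-D replicate 2. Of 11 tanning and pigment genes 1 rose and 8 fell, the falls numbering 5 without Ctrl-D replicate 1 and 5 without Ctrl-D replicate 2. The phenylalanine hydroxylase gene Hn had 0.189 and 0.353 RPKM in QuadD, against 7.801 and 13.2 RPKM in Ctrl-D (-3.14 ± 0.27), and Pu, which makes its cofactor, had 6.41 and 6.16 RPKM in QuadD, against 20.5 and 28.8 RPKM in Ctrl-D (-1.80 ± 0.19). The 1 rise of this list was y (yellow, 1.09), which like w is a common transgene marker gene. The part of construct RNA in it was not tested. Of 19 ecdysone response genes 2 rose and 15 fell (median -1.13). ImpL1 had 7.33 and 7.78 RPKM in QuadD, against 337 and 474 RPKM in Ctrl-D (-5.55 ± 0.16, adjusted p = 3.65e-05), ImpE2 had 18.4 and 22.2 RPKM in QuadD, against 395 and 489.7 RPKM in Ctrl-D (-4.38 ± 0.14, adjusted p = 4.14e-05) and ImpE1 had 0.546 and 0.532 RPKM in QuadD, against 49.4 and 82.7 RPKM in Ctrl-D (-5.40 ± 0.25). All 3 were first named as genes that ecdysone induces in imaginal discs, and in each the groups were far apart. The receptor subunit gene usp (44.2 and 44.3 RPKM in QuadD, against 43.4 and 34.4 RPKM in Ctrl-D) did not pass. Ecdysone synthesis genes did not fall as a group, with 4 of 10 higher and 3 lower. The rises, among them the hydroxylase gene sad (20.6 and 32.6 RPKM in QuadD, against 11.03 and 11.1 RPKM in Ctrl-D, 1.16 ± 0.22), numbered 2 without QuadD replicate 2 and 2 without Ctrl-D replicate 2, and Cyp18a1, which breaks ecdysone down, fell (-1.52 ± 0.22).

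The controls themselves differed in these genes. Between the Ctrl-D libraries, replicate 2 minus replicate 1, the median log2 difference was 0.53 for the Osiris list, 0.38 for chitin assembly, 0.56 for the Tweedle list and 0.21 for ecdysone response. Between the QuadD libraries the same medians were 0.01, -0.05, -0.04 and 0.02. Falls of verm, serp, Osi6 and ImpL1 were larger than this spread, and the part of the spread in the smaller falls was not tested.

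**Figure D4:**
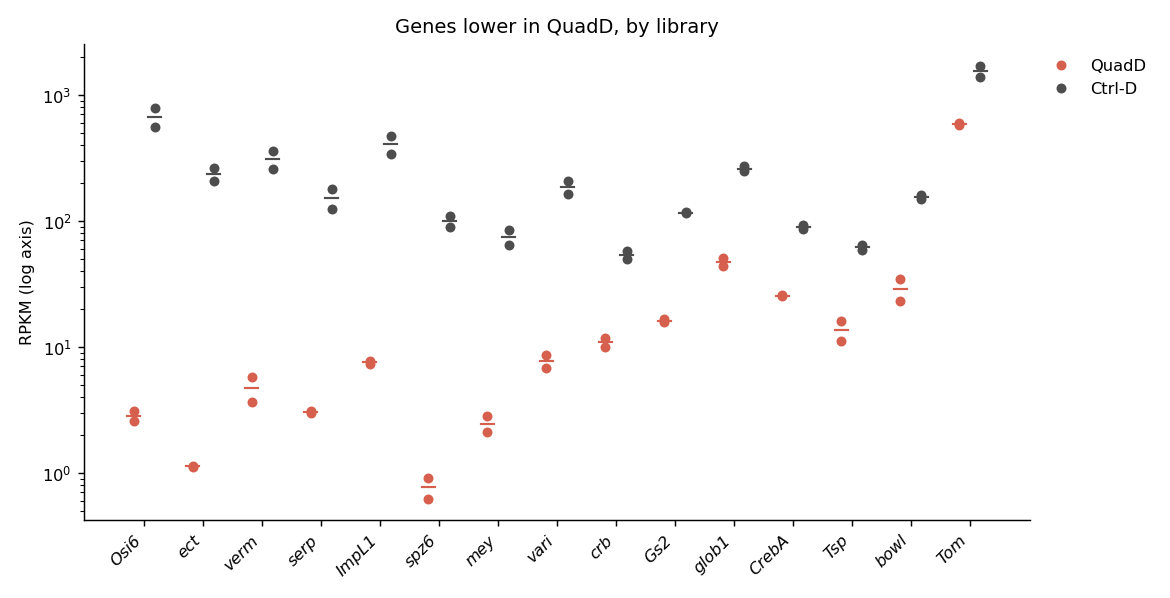
RPKM on a log axis in the 2 QuadD (red, left) and 2 Ctrl-D (grey, right) libraries for 15 genes that fell, with a bar at the mean of each pair. In all 15 both QuadD libraries lie below both Ctrl-D libraries, and Osi6, ect and spz6 fall close to or below 3 RPKM. The genes were picked among those that passed, and the groups did not overlap for 81.3% of all tested genes.

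Genes that build epithelia fell selectively. Of 25 septate junction genes 3 rose and 17 fell (median -0.56), the rises numbering 1 without QuadD replicate 1. The scaffold gene vari had 8.59 and 6.84 RPKM in QuadD, against 163 and 207 RPKM in Ctrl-D (-4.42 ± 0.16, adjusted p = 5.01e-05), far below the next falls, rtv (11.9 and 8.697 RPKM in QuadD, against 32.9 and 40.3 RPKM in Ctrl-D, -1.74 ± 0.18), Gli (-0.96 ± 0.13) and sinu (-0.90 ± 0.14). Atpalpha had 292 and 261 RPKM in QuadD, against 261 and 283 RPKM in Ctrl-D and did not pass, and Nrt, an adhesion gene also used by axons, rose (737 and 778 RPKM in QuadD, against 407 and 398 RPKM in Ctrl-D, 0.91 ± 0.08). Of 17 polarity and adherens junction genes 6 fell and 1 rose. The apical determinant genes crb (11.8 and 10.04 RPKM in QuadD, against 49.5 and 57.9 RPKM in Ctrl-D, -2.20 ± 0.14, adjusted p = 0.000143) and sdt (23.1 and 24.1 RPKM in QuadD, against 64.9 and 61.2 RPKM in Ctrl-D, -1.38 ± 0.09) and the large cadherin genes ft (-1.67 ± 0.14) and ds (-1.37 ± 0.12) fell. E-cadherin, shg, had 143 and 163 RPKM in QuadD, against 153 and 150.4 RPKM in Ctrl-D and the apical scaffold gene baz had 46.7 and 49.2 RPKM in QuadD, against 50.3 and 46.2 RPKM in Ctrl-D, with overlapping libraries, and neither passed. On the reference vari overlaps Pomp, and reads of the pair cannot be told apart.

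Tracheal and secretory genes were lower. Of 15 tracheal genes 1 rose and 10 fell (median -0.79), with the FGF receptor gene btl (14.1 and 11.2 RPKM in QuadD, against 36.7 and 34.5 RPKM in Ctrl-D, -1.43 ± 0.14), the zinc finger genes kni (29.1 and 29.7 RPKM in QuadD, against 77.6 and 76.8 RPKM in Ctrl-D, -1.36 ± 0.09) and knrl (-1.16 ± 0.15), and the kinase gene Cad96Ca (-2.39 ± 0.23). The partner gene tgo, which is broadly expressed, had 112 and 114 RPKM in QuadD, against 127 and 114 RPKM in Ctrl-D and did not pass. Of 30 salivary gland and secretory pathway genes 1 rose and 26 fell (median -0.76). CrebA, the factor that raises secretory capacity, had 25.5 and 25.6 RPKM in QuadD, against 86.3 and 92.6 RPKM in Ctrl-D (-1.77 ± 0.09, adjusted p = 8.73e-05). The prolyl hydroxylase gene PH4alphaSG2 had 2.46 and 1.07 RPKM in QuadD, against 33.8 and 45.6 RPKM in Ctrl-D (-3.91 ± 0.28), and the disulfide isomerase gene Pdi, one of the largest losses in RPKM, had 659 and 636 RPKM in QuadD, against 1475 and 1764 RPKM in Ctrl-D (-1.32 ± 0.12). The Hox gene Scr, which sets salivary gland fate, had 31.6 and 30.2 RPKM in QuadD, against 32.9 and 30.96 RPKM in Ctrl-D and did not pass.

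Muscle factor genes moved both ways and sarcomere genes mostly fell. Of 24 mesodermal and myogenic factor genes 10 rose and 8 fell. The rises numbered 6 without QuadD replicate 1 and 6 without QuadD replicate 2, and the falls 5 without QuadD replicate 1. The identity gene slou had 23.4 and 23.7 RPKM in QuadD, against 9.74 and 8.14 RPKM in Ctrl-D (1.31 ± 0.14), the MyoD homologue nau had 26.3 and 27.4 RPKM in QuadD, against 11.02 and 10.6 RPKM in Ctrl-D (1.24 ± 0.12) and the heart gene tin had 58.3 and 58.9 RPKM in QuadD, against 38.5 and 24.6 RPKM in Ctrl-D (0.91 ± 0.20), while the RNA-binding gene how fell (-0.71 ± 0.08). Of 21 sarcomere genes 1 rose and 14 fell (median -0.88). Myosin heavy chain (Mhc, -1.26 ± 0.13), its light chain gene Mlc1 (63.5 and 56.3 RPKM in QuadD, against 142 and 189.6 RPKM in Ctrl-D, -1.44 ± 0.15) and the troponin C gene TpnC47D (20.04 and 21.1 RPKM in QuadD, against 67.02 and 98.2 RPKM in Ctrl-D, -1.93 ± 0.18) fell. The actin gene Act87E rose (426 and 424 RPKM in QuadD, against 245 and 221 RPKM in Ctrl-D, 0.87 ± 0.09), but actin genes are near-identical in coding sequence and their counts are uncertain. Of 13 fusion genes 2 rose (0 without QuadD replicate 1 and 0 without QuadD replicate 2) and 6 fell, among them the receptor gene sns (17.8 and 15.1 RPKM in QuadD, against 41.3 and 46.1 RPKM in Ctrl-D, -1.36 ± 0.13) and mbc (-0.98 ± 0.12). Members of the attachment list known from tendon cells included falls. The tendon fate gene sr had 1.001 and 0.979 RPKM in QuadD, against 10.8 and 11.9 RPKM in Ctrl-D (-2.63 ± 0.17), thrombospondin (Tsp) had 16.2 and 11.2 RPKM in QuadD, against 59.1 and 64.2 RPKM in Ctrl-D (-2.11 ± 0.17) and slow, its partner at attachment sites, had 7.84 and 6.42 RPKM in QuadD, against 25.2 and 31.9 RPKM in Ctrl-D (-1.86 ± 0.17). Of the 16 integrin and attachment genes as a whole 2 rose, talin (rhea, 0.69 ± 0.07) and kon (69.3 and 56.96 RPKM in QuadD, against 24.7 and 28.7 RPKM in Ctrl-D, 1.21 ± 0.13), and 8 fell.

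Blood cell genes gave further falls, and gut genes moved both ways. Of 21 hemocyte and basement membrane genes 2 rose and 16 fell (median -0.96), the rises numbering 1 without QuadD replicate 1 and 1 without QuadD replicate 2. The crystal cell enzyme genes PPO1 (3.54 and 1.46 RPKM in QuadD, against 61.3 and 82.9 RPKM in Ctrl-D, -4.44 ± 0.31) and PPO2 (20.8 and 16.6 RPKM in QuadD, against 112 and 110.5 RPKM in Ctrl-D, -2.52 ± 0.12, adjusted p = 8.37e-05), the growth factor receptor gene Pvr (10.6 and 8.37 RPKM in QuadD, against 39.4 and 50.2 RPKM in Ctrl-D, -2.12 ± 0.17) and the globin gene glob1 (44.2 and 50.5 RPKM in QuadD, against 248 and 271 RPKM in Ctrl-D, -2.43 ± 0.10, adjusted p = 5.46e-05) were lower. Nidogen (Ndg) rose to 159.6 and 152 RPKM in QuadD, against 83.3 and 87.6 RPKM in Ctrl-D (0.86 ± 0.08), and Pxn (27.5 and 38.5 RPKM in QuadD, against 33.7 and 35.7 RPKM in Ctrl-D) and SPARC (74.2 and 74.4 RPKM in QuadD, against 71.5 and 83.5 RPKM in Ctrl-D), both made by plasmatocytes, overlapped between groups and did not pass. Of 20 gut patterning genes 6 rose and 8 fell, the falls numbering 5 without QuadD replicate 2. The zinc finger gene bowl had 34.6 and 23.3 RPKM in QuadD, against 161 and 149 RPKM in Ctrl-D (-2.40 ± 0.18, adjusted p = 0.000255) and its regulator drm had 60.9 and 50.2 RPKM in QuadD, against 186 and 162 RPKM in Ctrl-D (-1.63 ± 0.12), and the hindgut gene byn fell (-1.16 ± 0.21). The rises of the gut list included slou, tin and lab, whose values are given above.

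Signalling and patterning lists contained large single changes. Of 14 Toll receptor and Spatzle family genes 1 rose and 11 fell (median -0.92), the falls numbering 5 without Ctrl-D replicate 1 and 6 without Ctrl-D replicate 2. The ligand gene spz6 had 0.917 and 0.626 RPKM in QuadD, against 90.3 and 109.7 RPKM in Ctrl-D (-5.83 ± 0.16, adjusted p = 3.65e-05) and the neurotrophin-like gene NT1 had 0.72 and 0.7 RPKM in QuadD, against 21.4 and 24.5 RPKM in Ctrl-D (-3.80 ± 0.16, adjusted p = 6.01e-05). The receptor gene Toll-6, active in neurons, was the 1 rise (94.7 and 92.9 RPKM in QuadD, against 67.9 and 63.01 RPKM in Ctrl-D, 0.51 ± 0.08), and Toll-7 (50.8 and 50.96 RPKM in QuadD, against 48.6 and 56.2 RPKM in Ctrl-D) did not pass. In the EGF receptor list 5 of 17 genes rose and 4 fell, shares near those of all tested genes. The ligand gene spi (595 and 615 RPKM in QuadD, against 389 and 284 RPKM in Ctrl-D, 0.86 ± 0.15) and the feedback gene kek1 (17.1 and 22.8 RPKM in QuadD, against 5.002 and 6.64 RPKM in Ctrl-D, 1.62 ± 0.20) rose, while the receptor gene Egfr (47.5 and 46.5 RPKM in QuadD, against 90.98 and 77.7 RPKM in Ctrl-D, -0.83 ± 0.10) and the nuclear effector genes pnt (-0.79 ± 0.09) and aop (-0.90 ± 0.11) fell. Of 20 Dpp pathway genes 3 rose and 7 fell. The repressor gene brk had 17.9 and 17.7 RPKM in QuadD, against 52.2 and 56.4 RPKM in Ctrl-D (-1.56 ± 0.10), the receptor gene tkv had 82.9 and 80.01 RPKM in QuadD, against 179.9 and 175 RPKM in Ctrl-D (-1.11 ± 0.08) and the inhibitory Smad gene Dad fell (-1.03 ± 0.12), whereas the ligand gene gbb had 213 and 203 RPKM in QuadD, against 214 and 203 RPKM in Ctrl-D and did not pass. The 3 rises of this list numbered 0 without QuadD replicate 1, 0 without QuadD replicate 2 and 1 without Ctrl-D replicate 2. Of 16 segment polarity genes 3 rose and 9 fell. The rises numbered 1 without QuadD replicate 1 and 1 without QuadD replicate 2, and the falls 4 without QuadD replicate 1 and 3 without QuadD replicate 2. The Hedgehog effector gene ci fell (63.1 and 67.1 RPKM in QuadD, against 173 and 133 RPKM in Ctrl-D, -1.21 ± 0.13) and gsb-n, which neuroblasts also use, rose (51.7 and 51.5 RPKM in QuadD, against 25.9 and 28.6 RPKM in Ctrl-D, 0.90 ± 0.10). Among 20 early segmentation genes 4 rose and 9 fell. The rises numbered 2 without QuadD replicate 1 and 2 without QuadD replicate 2, and the falls 5 without QuadD replicate 1 and 5 without Ctrl-D replicate 1. Of these, hb (0.76 ± 0.13) and ftz (1.07 ± 0.13), both reused in the nervous system, rose, and odd (-1.06 ± 0.12), opa (-0.86 ± 0.14) and h (-0.76 ± 0.13) fell.

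Growth and metabolism genes gave more falls than rises, except the proteasome list. All 20 tested genes of ribosome biogenesis fell (median -0.66). Myc, which drives this programme, had 19.9 and 14.5 RPKM in QuadD, against 39.3 and 37.6 RPKM in Ctrl-D (-1.14 ± 0.16) and the snoRNP gene NHP2 had 192 and 178 RPKM in QuadD, against 360.0 and 379.8 RPKM in Ctrl-D (-0.99 ± 0.08, adjusted p = 0.000379). Of 17 tRNA synthetase genes 15 fell (median -0.40), the falls numbering 6 without QuadD replicate 1 and 5 without QuadD replicate 2, with AlaRS at -0.93 ± 0.09. Cytoplasmic ribosomal protein genes had a median of -0.22, and 7 of 86 passed, all lower and a smaller share than over all tested genes. That count was 1 without QuadD replicate 1, 1 without QuadD replicate 2 and 64 without Ctrl-D replicate 1, and the median was -0.13 without Ctrl-D replicate 2. Of 73 mitochondrial ribosomal protein genes 1 rose and 23 fell, the falls numbering 5 without QuadD replicate 1, 7 without QuadD replicate 2, 41 without Ctrl-D replicate 1 and 12 without Ctrl-D replicate 2. Of 59 respiratory chain genes 27 fell (median -0.27), the falls numbering 5 without QuadD replicate 1, 5 without QuadD replicate 2 and 44 without Ctrl-D replicate 1. The median was -0.15 without Ctrl-D replicate 2. The ATP synthase gene blw was one of the falls (305 and 314 RPKM in QuadD, against 452 and 459.6 RPKM in Ctrl-D, -0.56 ± 0.08). Proteasome genes went the other way, 18 of 35 being higher (median 0.28), but the rises numbered 6 without QuadD replicate 1 and 0 without QuadD replicate 2.

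Detoxification genes held several deep falls. Of 38 tested P450 genes 5 rose and 26 fell (median -1.45, and -0.62 without Ctrl-D replicate 2). The rises numbered 1 without QuadD replicate 1, 1 without QuadD replicate 2 and 3 without Ctrl-D replicate 2, and the falls 12 without Ctrl-D replicate 1 and 11 without Ctrl-D replicate 2. Cyp309a2 had 0.678 and 0.88 RPKM in QuadD, against 13.4 and 15.5 RPKM in Ctrl-D (-3.11 ± 0.18) and Cyp4e2 had 5.45 and 4.67 RPKM in QuadD, against 43.2 and 59.5 RPKM in Ctrl-D (-3.10 ± 0.18). Of 30 glutathione transferase genes 1 rose and 19 fell, the falls numbering 11 without QuadD replicate 1 and 11 without Ctrl-D replicate 2. GstE3 had 3.02 and 2.82 RPKM in QuadD, against 57.8 and 90.9 RPKM in Ctrl-D (-4.23 ± 0.22) and GstE6 had 10.3 and 10.2 RPKM in QuadD, against 69.8 and 91.5 RPKM in Ctrl-D (-2.85 ± 0.15), while GstE1 of the same cluster had 21.8 and 26.5 RPKM in QuadD, against 22.6 and 26.4 RPKM in Ctrl-D and did not pass. Of 20 heat shock and chaperone genes 0 rose and 12 fell, the falls numbering 7 without Ctrl-D replicate 2. The secretory chaperone gene Hsc70-3 had 342 and 296 RPKM in QuadD, against 816 and 878 RPKM in Ctrl-D (-1.41 ± 0.10), its cytosolic relative Hsc70-4 had 2534 and 2513 RPKM in QuadD, against 2313 and 2459 RPKM in Ctrl-D and did not pass, and the Hsp70 copies cannot be told apart. Hsp27 varied within QuadD (569.9 and 301 RPKM in QuadD, against 409 and 466 RPKM in Ctrl-D). The median log2 difference between the QuadD libraries, replicate 2 minus replicate 1, was -0.47 over this list, and its part in the result was not tested.

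Germ line, maternal and dosage compensation genes gave more rises than falls. Of 20 germ plasm genes 9 rose and 1 fell, the rises numbering 4 without QuadD replicate 2 and 5 without Ctrl-D replicate 2. The piRNA gene mael (24.8 and 30.3 RPKM in QuadD, against 13.3 and 14.8 RPKM in Ctrl-D, 0.92 ± 0.14) and pgc (12.6 and 18.5 RPKM in QuadD, against 2.11 and 2.21 RPKM in Ctrl-D) rose, and ovo, which acts in the germ line and, as shavenbaby, in denticle-forming cells, had 7.75 and 7.81 RPKM in QuadD, against 35.3 and 34.8 RPKM in Ctrl-D (-2.04 ± 0.12). Of 16 maternal regulators 6 rose and 1 fell, the rises numbering 1 without QuadD replicate 2 and 2 without Ctrl-D replicate 2. The translational repressor gene smg had 29.97 and 51.3 RPKM in QuadD, against 19.2 and 13.2 RPKM in Ctrl-D (1.25 ± 0.28), a call lost without Ctrl-D replicate 2, and the median difference between the QuadD libraries was 0.64 on the log2 scale over this list. Of 8 dosage compensation genes 7 rose (median 0.47), the rises numbering 3 without QuadD replicate 2. The male-specific RNA gene roX1 had 275 and 313 RPKM in QuadD, against 169 and 129 RPKM in Ctrl-D (0.98 ± 0.14) and msl-2 had 45.7 and 52.1 RPKM in QuadD, against 30.3 and 24.4 RPKM in Ctrl-D (0.82 ± 0.14), and the proportion of males in each collection is not given. Of 14 cell death genes 5 rose and 3 fell, the rises numbering 3 without QuadD replicate 1 and 1 without QuadD replicate 2. The inducer gene skl had 82.2 and 86.8 RPKM in QuadD, against 37.4 and 36.2 RPKM in Ctrl-D (1.18 ± 0.09), hid had 15.5 and 18.7 RPKM in QuadD, against 44.4 and 44.3 RPKM in Ctrl-D (-1.33 ± 0.12), and rpr rose (0.65 ± 0.15), a call lost without QuadD replicate 2.

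A few genes were at the lowest value of the table, 0.003 RPKM, in 1 group only. In both QuadD libraries this held for 4 genes with at least 5 RPKM in both Ctrl-D libraries. CG5804 had 12.8 and 11.1 RPKM in Ctrl-D, CG17781 had 9.54 and 10.2 RPKM, CG15370 had 5.74 and 6.6 RPKM and CG46316 had 5.29 and 5.53 RPKM. In both Ctrl-D libraries it held for 2 genes. The olfactory receptor gene Ir64a had 8.399 and 8.79 RPKM in QuadD, and the neuropeptide-like precursor gene Nplp3 had 9.56 and 10.1 RPKM. In the other experiment Ir64a was again listed at the floor in both driver-only libraries, and at 3.35 and 3.36 RPKM in Quad, the embryos with the same factors in wild-type form. Nplp3 was listed at the floor in all 4 libraries of that experiment.

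Some genes that changed in the same direction lay side by side. In gene order on the reference, 30 runs of at least 4 neighbouring tested genes changed by at least 2-fold in 1 direction, 28 of them lower and 2 higher. Over all tested genes, 13.2% were at least 2-fold lower and 5.26% higher, so lower runs would be more frequent in any gene order. The longest was a run of 17 lower genes from Gasp to Osi20 that holds many of the Osiris genes (median -3.92). A run of 11 lower genes reached from CG5762 to CG13616 (median -2.14) and includes CG17781. Others held the zinc finger genes drm, sob and odd, the glutathione transferase genes GstE3, GstE5, GstE6 and GstE7, and PH4alphaSG1 with PH4alphaSG2. The 2 higher runs held Hey with CG11191 and CG14762 (median 1.82) and insv with Elba2 (median 1.12). Neighbouring gene copies share sequence and may share reads, and the order was taken from a reference whose build may differ from that of the files.

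The changes were set beside those of Quad embryos, which express the 4 factors in wild-type form, against their own driver-only control. Kr RNA, which did not pass in QuadD, had 96.1 and 109.5 RPKM in Quad, against 46.1 and 35.2 RPKM in the Quad control. The part of Kr in the comparison was not tested. The experiments had separate lanes, tables and control libraries, so the experiment and the construct cannot be told apart in this difference. The difference of the effects passed for 291 of 10775 genes (2.70%), of which 101 (0.937%) were positive and 190 (1.76%) negative. It passed for 17 of the 30 largest changes of QuadD, 9 rises and 8 falls. These 30 were chosen for their size in libraries that also enter the difference. The share of calls and the size of their differences are therefore not independent of the choice. Of the 15 rises 13 also had a positive effect in Quad, and all 15 falls had a negative one. The gene nvy was 2.89 in QuadD and 0.97 in Quad on the log2 scale (difference 1.92 ± 0.18, adjusted p = 0.00119), nrm was 2.62 and 0.15 (2.47 ± 0.24, adjusted p = 0.00128), and side was 2.35 and 0.87 (1.48 ± 0.18, adjusted p = 0.00331). CG13946 was 3.99 in QuadD and -0.73 in Quad (4.71 ± 0.32, adjusted p = 0.000172). Among the falls CG31813 was -7.97 and -3.99 (-3.98 ± 0.54, adjusted p = 0.00622), and CG13159 was -6.76 and -3.38 (-3.37 ± 0.32, adjusted p = 0.00117). Among the rest, wor was 2.08 and 2.00 (0.08 ± 0.12, adjusted p = 0.811), and its difference did not pass, nor did those of Cyp4p2, pgc, spz6, verm and CG15282. Of the 17 differences, 8 passed with each of the 8 libraries left out in turn and 9 lost the call in at least 1 case. The count over all genes was 183 without QuadD replicate 1, 145 without QuadD replicate 2, 192 without Ctrl-D replicate 1, 188 without Ctrl-D replicate 2, 495 without Quad replicate 1, 141 without Ctrl replicate 1 and 126 without Ctrl replicate 2.

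**Figure D5:**
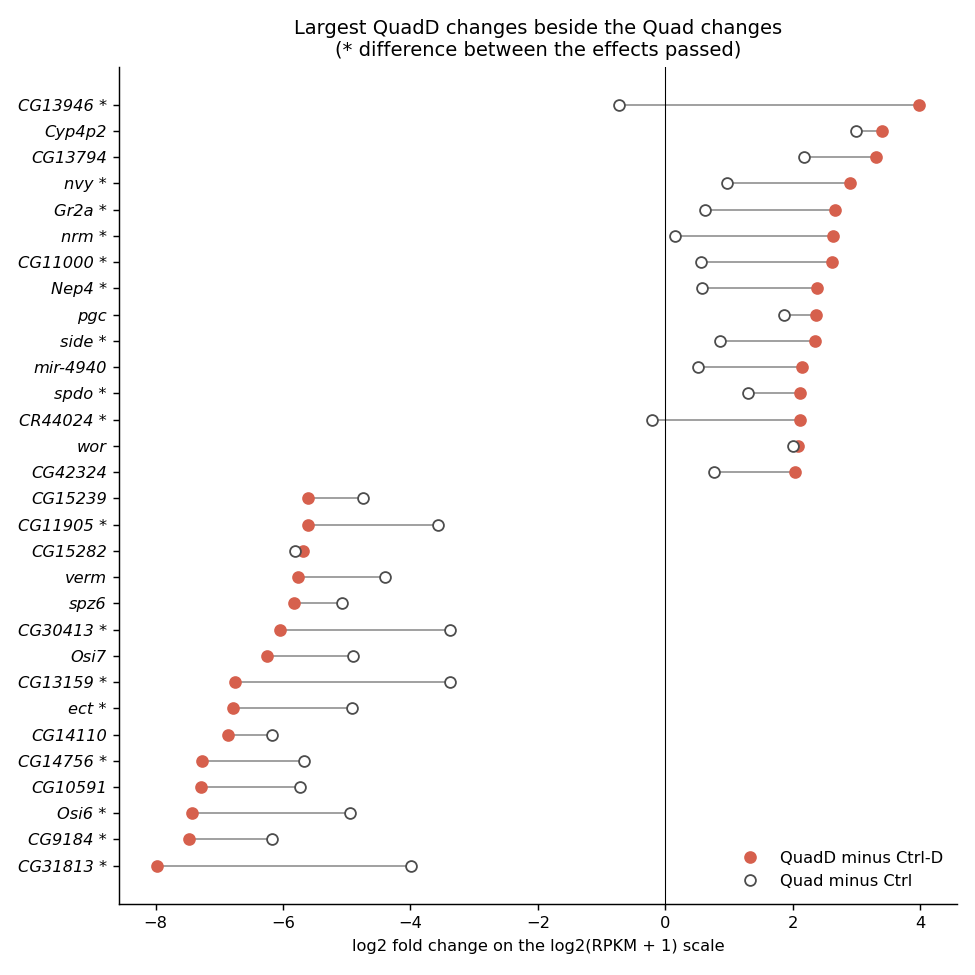
Log2 fold changes of the 15 largest rises and 15 largest falls of QuadD against Ctrl-D (filled) and of the same genes in Quad against Ctrl (open). Asterisks mark the 17 genes whose difference between the effects passed, all of them with the QuadD change farther from 0.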

How the data were processed

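RNA of whole embryos was read as 50 bp single reads on 1 lane per experiment, per the labels' protocols. The authors deposited linear RPKM for each gene and library, beside log2 columns that were not used, per the file headers. Their raw count columns are incomplete, with a dash in 414 cells, and served to judge depth and for 1 alternative fit. The sources used here do not give the aligner, annotation, build or strand setting. A gene was tested where 2 or more of the 4 libraries reached 1 RPKM. Tests were run on log2(RPKM + 1) with limma 3.58.1 in R 4.3.3, with a trended prior and Benjamini-Hochberg adjustment over all tested genes at 0.05. An exact permutation test of 2 against 2 libraries cannot go below p = 0.333. The difference from Quad came from 1 fit of all 8 libraries in 4 groups. Fits were tested on simulated data. Depth relative to QuadD replicate 1 was 42.5% for QuadD replicate 2, 41.5% for Ctrl-D replicate 1 and 39.6% for Ctrl-D replicate 2. It was the median ratio of counts to RPKM over genes with high counts and at least 1 RPKM in every library. With these depths, counts followed RPKM within 1% or 1 read for 4621 genes. Spread between replicates was above counting noise, with chi-square over its degrees of freedom at 5.45 for QuadD and 9.11 for Ctrl-D. The 67 gene lists, the members and the tests were chosen with earlier results of these data known. Genes named are the transgenes' genes, CycE, E2f1, stg, dap and tissue markers, the 15 largest rises and falls (no overlap between groups, 10 RPKM or more on the higher side), the 10 largest RPKM differences per direction, genes at the floor in 1 group, and up to 4 rises, 4 falls and 2 other members of each list. Not all of them are printed. Gene order and overlaps follow RefSeq genes of Release 6, matched by symbol for 16367 of 17321 genes.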

Additional observations from a re-analysis of the deposited data

Results flagged for a closer look

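For 17 of the 30 largest changes the QuadD effect differed from the Quad effect, by limma's test of the difference itself. Among the rises the difference, as the log2 effect of QuadD minus that of Quad, was 4.71 for CG13946, 2.47 for nrm, 2.32 for CR44024, 2.06 for CG11000, 2.04 for Gr2a, 1.92 for nvy, 1.80 for Nep4, 1.48 for side and 0.82 for spdo. Among the falls it was -3.98 for CG31813, -3.37 for CG13159, -2.68 for CG30413, -2.48 for Osi6, -2.04 for CG11905, -1.87 for ect, -1.60 for CG14756 and -1.31 for CG9184. With each of the 8 libraries left out in turn, the calls of CG13946, nrm, CG11000, nvy, side, CG31813, CG13159 and CG11905 held. The call of CG14756 was lost without Ctrl replicate 1, those of CG30413 and ect without Ctrl-D replicate 2, that of Gr2a without QuadD replicate 2, and that of spdo without QuadD replicate 2 and without Ctrl replicate 1. That of Osi6 was lost without any 1 QuadD or Ctrl-D library and without Quad replicate 2. Those of CR44024 and Nep4 were lost without any 1 QuadD, Ctrl-D or Ctrl library. That of CG9184 was lost without either QuadD library, without Ctrl-D replicate 2 and without either Ctrl library. In Quad libraries CG13946 was listed at 0.002 RPKM in both, against 0.884 and 0.456 RPKM in Ctrl. Because the genes were chosen for their size in QuadD, the sign, size and number of these differences are not independent of the choice.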

How the results depend on the processing

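Of 5618 genes that passed, alternatives with all libraries and the filter kept gave 5214 to 5888. With no filter 3140 passed, 1289 higher and 1851 lower, and 322 were at least 2-fold higher, with 17321 genes tested. Quantile normalization gave 3456 higher and 2432 lower, with 880 higher and 1102 lower by at least 2-fold, and moved the median of all genes to 0.14. Without each library in turn, 3293 to 5128 genes passed, with 1259 to 2778 higher and 1926 to 2350 lower, and with 388 to 638 higher and 809 to 1412 lower by at least 2-fold. In the difference from Quad, leaving out each library gave 126 to 495 calls, with 37 to 250 higher and 89 to 245 lower, and with 31 to 187 higher and 88 to 186 lower by at least 2-fold. Across genes, the deviations of same-numbered libraries from their group means correlated at -0.095. With 2 libraries per group this cannot decide whether same-numbered libraries were collected or prepared together. With the replicate block 5339 genes passed, and the difference gave 174 calls, 56 higher and 118 lower, 47 of them at least 2-fold higher. Among 444 tested named genes no call changed sign under these alternatives. Calls were lost for 135 genes with no filter, 52 without QuadD replicate 1, 57 without QuadD replicate 2, 8 without Ctrl-D replicate 1 and 23 without Ctrl-D replicate 2. List medians changed sign in 11 cases. Quantile normalization gave 0.0198 for sensory organ and 0.129 for EGF receptor genes, and pseudocount 0.1 gave -0.0521 for the larval and adult list. Without single libraries the range was -0.14 to 0.33 for proneural genes, -0.0732 to 0.80 for peptidergic genes, -1.35 to 0.0630 for Tweedle genes, -1.75 to 0.25 for chitin-binding cuticle proteins, -0.00314 to 0.53 for ecdysone synthesis and -0.12 to 0.20 for the larval and adult list. The cause was not tested. Of 4040 genes with raw counts proportional to RPKM 2200 passed, and 2247 with limma voom on the counts, an alternative chosen after seeing the data. The planned edgeR and DESeq2 tests were not run, since the deposited counts are partial. Depth limits genes near 1 RPKM most, above all in the 3 shallower libraries.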

Other observations

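Other abundant genes also changed. The odorant-binding protein gene Obp99a had 1220.4 and 1403 RPKM in QuadD, against 2474 and 2863 RPKM in Ctrl-D (-1.02 ± 0.13), and bnb, a member of the glia list that overlaps S6KL on the reference, had 1058 and 969 RPKM in QuadD, against 2284 and 1946 RPKM in Ctrl-D (-1.06 ± 0.12). Among abundant gains, Bacc, which overlaps Pgk, had 5757 and 6179 RPKM in QuadD, against 3476 and 2781 RPKM in Ctrl-D (0.94 ± 0.15) and the chromatin decondensation gene Df31 had 7481 and 7979 RPKM in QuadD, against 4554 and 3728 RPKM in Ctrl-D (0.91 ± 0.15), a call lost without QuadD replicate 2. The vacuolar ATPase genes held paralogues that moved apart, with Vha68-1 at 74.2 and 80.7 RPKM in QuadD, against 47 and 54.4 RPKM in Ctrl-D (0.60 ± 0.11) and Vha68-2 at 39.6 and 40.2 RPKM in QuadD, against 79.3 and 94.9 RPKM in Ctrl-D (-1.10 ± 0.11). These paralogues are similar in sequence, and how shared reads were assigned is not given.

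By chromosome arm on the reference, 486 of 1625 tested X genes rose and 400 fell (median 0.11), against 684 and 710 of 2419 on 3R (0.06) and 458 and 513 of 1738 on 2L (0.01). On arm 4, 30 of 87 tested genes rose and 13 fell (0.14). No test of these differences was made.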
